A study of Mus musculus with 4 samples.

Results

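The Egr genes and the Nab genes were examined in the posterior eye of C3H/f+/+ mice by RNA-seq. The 6 genes, Egr1, Egr2, Egr3, Egr4, Nab1 and Nab2, were found by their symbols among 22863 genes listed, and all 6 were among the 17784 genes that could be compared. They had been chosen on the difference in Egr1 between the conditions, which was known from an earlier look at the same samples. Their levels in the conditions are therefore given as a description, with no p-value. How many passed the threshold applied to all genes is counted once, and nothing is read from that count.

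C3H/f+/+ mice make melatonin and are free of the Pde6b mutation that destroys the photoreceptors of other C3H mice. Of the 4 samples, 2 were from subjective day and 2 from objective day, both taken at noon (CT 6 and ZT 6, the hour of the internal clock and of the light cycle). Subjective day mice had been kept dark for 18 hours according to the methods, and another passage of the paper gives a longer time. Objective day mice had been in the light during the morning of a 12-hour light and 12-hour dark cycle and then dark-adapted for 1 hour. Each sample pooled 4 eyes, taken from 1 female mouse and 1 male mouse, without the anterior eye and lens, so that it held retina, retinal pigment epithelium (RPE), choroid and posterior sclera. Age was matched between the conditions. Recent light is the difference that the conditions were designed to carry, but time in darkness differed with it and the effects of these cannot be told apart.

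The Egr proteins are zinc finger transcription factors encoded by immediate early genes, which are transcribed within minutes of a stimulus without new protein synthesis. Growth factors, calcium entry and synaptic activity reach them through the ERK kinase cascade and CREB, and through serum response factor, which binds the CArG box together with ternary complex factors such as Elk1. Nab1 and Nab2 are corepressors without DNA binding of their own. They bind the Egr proteins and recruit chromatin repressors such as the NuRD complex, and Nab2 is itself known as an Egr target, which closes a feedback loop. In the retina, Egr1, also called Zenk, is best known for its response to light and visual input in amacrine cells.

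Promoter sequence is shown for matches to the binding letters of serum response factor, CREB and the Egr proteins. RefSeq windows on GRCm38.p6 were matched for 4 of the 6 genes, Egr2, Egr4, Nab1 and Nab2, with 8 start sites in all, and those of Egr1 and Egr3 were not used here. The 250 bases before each start were searched on both strands. The CArG box was found before 4 of the 5 starts of Egr2, but 3 of these windows overlap and share 1 box, so that there are only 2 distinct boxes. It was found in 1.47% of all 32851 windows. Stretches of 30 bases on the plus strand of chromosome 10 are shown for it, with the CArG box in capitals and, in the first, also the CGTCA of a cyclic AMP response element core (TGACG read on the other strand).
Egr2, chr10:67537793-67537822, plus strand: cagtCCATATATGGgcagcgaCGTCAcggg
Egr2, chr10:67537484-67537513, plus strand: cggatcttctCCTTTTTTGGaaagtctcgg
The TGACG core, which CREB can bind, lay at 2 places in the single Egr4 window and was found in 17.8% of all windows, and the full element TGACGTCA, present in 1.55% of windows, was found in none of the windows of these genes. The Egr4 stretches come from the minus strand of chromosome 6 and carry the core in capitals.
Egr4, chr6:85513749-85513778, minus strand: cggcggcagcaaCGTCAcaggccgagcttt
Egr4, chr6:85513681-85513710, minus strand: tttggtcatttaCGTCAcggcgccagggcc
The Egr site GCGNGGGCG was found 3 times before the start of Nab1, on the minus strand of chromosome 1, and in 4.70% of all windows. Each of the 3 matches overlapped an Sp1 box (GGGCGG, in 32.7% of windows), and all lie in an exonic UTR of a longer GENCODE transcript of Nab1. The Nab1 window has a GC content of 80.8%, which the shares over all windows do not take into account. The Egr site is in capitals, and in the first stretch it is read on the other strand.
Nab1, chr1:52500570-52500599, minus strand: gccccgcggcCGCCCACGCcgggatctgcg
Nab1, chr1:52500538-52500567, minus strand: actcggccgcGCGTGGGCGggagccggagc
Nab1, chr1:52500467-52500496, minus strand: gcggggcgggGCGGGGGCGgcggaggtggc
The Nab2 window, which lies inside the longer gene of the GENCODE annotation and overlaps an exonic UTR, held 1 Sp1 box and no match to the Egr site letters. These matches are descriptions of letters in a window and not sites of measured binding.

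The deposited values are adjusted counts per gene, and how they were adjusted is not stated. They summed to between 33278417 and 35236783 per sample, and 1 read was worth about 0.929 to 1.11 of a value, so that the relative depth lay between 89.1% and 107%. The comparison took genes that reached 10 in 2 samples or more and used limma on log2(value + 1), with Benjamini-Hochberg adjustment and a threshold of 0.05. Log2 fold changes are differences of objective minus subjective day on this scale, where weakly expressed genes show too small a change. The threshold was passed by 1514 genes, 189 higher and 1325 lower, and with upper quartile scaling by 1685 genes, 443 higher and 1242 lower. After removal of the GC trend of each sample it was passed by 211 genes, 100 higher and 111 lower. In percent of the genes tested, 8.51 passed the threshold, 1.06 as higher and 7.45 as lower, and the conditions did not overlap for 56.1%. Differences followed the GC content of the transcript across genes, so the members and the list genes past the threshold are also given with that trend removed. The median log2 fold change was 0.015 over all genes tested, and 52.6% of them were above 0.

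Egr1 (ENSMUSG00000038418), the most widely studied member, was 375 and 512 in the subjective day samples, against 2163 and 2006 in the objective day samples. Both objective day samples lay far above both subjective day samples, with a gap of 1.97 on the log2 scale between the nearest samples of the conditions, against 0.45 between the subjective day samples. The mean was 444 ± 96.7 (SD, n = 2) in subjective day, against 2084 ± 111 (SD, n = 2) in objective day. The log2 fold change was 2.25 (SE 0.14), or 4.74-fold. It was 2.13 (SE 0.15) with the GC trend removed, and between 2.02 and 2.47 with 1 sample left out. Egr1 had the highest log2 fold change of the 17784 genes, followed by Foxe3 with 2.13, a lens gene whose values were 12.0 and 4.61 in subjective day, against 58.1 and 22.7 in objective day. Its rank depended on the samples, and was 19 without subjective day replicate 1, 3 without subjective day replicate 2, 6 without objective day replicate 2 and 1 without objective day replicate 1.

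Egr2 (ENSMUSG00000037868) is known for hindbrain patterning and for myelination by Schwann cells. The gene spans 67535475 to 67542188 of chromosome 10 in GRCm38 (plus strand, GENCODE M21), where the further positions come from as well. Its values were 7.99 and 9.93 in subjective day, against 12.3 and 11.5 in objective day. The objective day samples were the higher ones and the conditions did not overlap, but the nearest samples were close. These values correspond to about 17 reads in the 2 subjective day samples together (exact Poisson 95% interval 9.90 to 27.2) and 25 in the 2 objective day samples (16.2 to 36.9), intervals that overlap and cover counting error only. Its log2 fold change was 0.38 (SE 0.42), and 0.32 with the GC trend removed.

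Egr3 (ENSMUSG00000033730), known for muscle spindle development and as a gene of active neurons, was 7.99 and 8.85 in subjective day, against 14.2 and 13.4 in objective day. Both objective day samples again lay above both subjective day samples, and the members of each pair lay close together. It spans 70077203 to 70082614 of chromosome 14 (plus strand). About 16 reads (9.15 to 26.0) stood against 29 (19.4 to 41.6), so the counting intervals overlapped here as well. On the log2 scale Egr3 differed by 0.65 (SE 0.40), and 0.60 with the GC trend removed. Egr2 and Egr3 reached the minimum value of 10 in the objective day samples only, so they were compared because they were higher there.

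Egr4 (ENSMUSG00000071341), known for male fertility and described as lacking the domain through which the other Egr proteins bind Nab, was 9.98 and 16.5 in subjective day, against 16.1 and 13.4 in objective day. The conditions overlapped, since the highest and the lowest value were both from subjective day. Its log2 fold change was 0.18 (SE 0.41) and lay between -0.16 and 0.51 with 1 sample left out. With the GC trend removed it was -0.04. It spans 85511121 to 85513589 of chromosome 6 (minus strand). At 25 reads (16.2 to 36.9) against 31 (21.1 to 44.0), no difference in Egr4 was detectable at this depth.

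**Figure D1:**
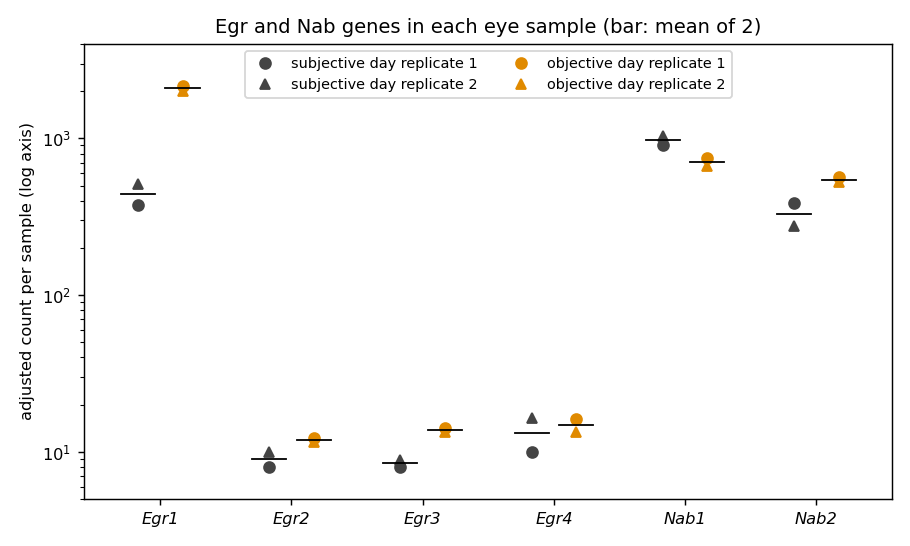
Adjusted count of each Egr and Nab gene in each of the 4 eye samples, on a log axis, with dark points for subjective day, orange points for objective day and a bar at the mean of the 2 samples. Egr1 goes from 375 and 512 to 2163 and 2006, the other Egr genes stay between 7.99 and 16.5 in every sample, and the Nab genes differ in opposite directions.

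Nab1 (ENSMUSG00000002881), the corepressor described as the more widely and steadily expressed of the pair, was 904 and 1041 in subjective day, against 748 and 665 in objective day. It spans 52457294 to 52500679 of chromosome 1 (minus strand). Nab1 was the only member that was lower in objective day, and its conditions did not overlap, with 0.27 on the log2 scale between the nearest samples. The mean was 972 ± 97.2 (SD, n = 2) in subjective day, against 707 ± 58.4 (SD, n = 2) in objective day. For Nab1 the log2 fold change was -0.46 (SE 0.098), a difference of -27.2%, and it was -0.40 with the GC trend removed and between -0.56 and -0.36 with 1 sample left out.

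Nab2 (ENSMUSG00000025402), the inducible corepressor, was 386 and 275 in subjective day, against 564 and 523 in objective day. Both objective day samples were higher than both subjective day samples, by 0.44 on the log2 scale between the nearest, and the subjective day samples differed more from each other than the objective day samples did. The mean was 330 ± 79.1 (SD, n = 2) in subjective day, against 543 ± 28.7 (SD, n = 2) in objective day. For Nab2 the log2 fold change was 0.74 (SE 0.16), or 66.5% more, and it was 0.60 with the GC trend removed and between 0.49 and 0.98 with 1 sample left out. With a GC content of 60.1%, Nab2 belongs to the tenth of genes richest in GC, whose median log2 fold change was 0.14.

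The value of Nab2, on chromosome 10 from 127660918 to 127668568, is uncertain because its exons on the minus strand share bases with genes on the other strand. The shared bases number 1050 with Gm16229, an antisense gene, 151 with Nemp1, which the table lists as Tmem194, and 40 with Stat6. No strand setting was stated, so reads of these genes and of Nab2 cannot be told apart in the shared parts. Tmem194 was 503 and 479 in subjective day, against 464 and 436 in objective day, with a log2 fold change of -0.13 (SE 0.089, adjusted p = 0.426 in limma). Stat6 was 498 and 467 in subjective day, against 511 and 518 in objective day, with a log2 fold change of 0.09 (SE 0.086, adjusted p = 0.54 in limma). Neither Tmem194 nor Stat6 passed the threshold, and Gm16229, which shares the most bases, was not found by that symbol among the genes listed. No other Egr or Nab gene shared exonic bases with an annotated gene.

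In limma, 3 of the 6 genes passed the threshold, Egr1 and Nab2 as higher and Nab1 as lower, beside the percentages of all genes given above, and nothing is read from this count because the same contrast chose the genes. The count was 1, Egr1 alone, without objective day replicate 2 and with the GC trend removed. It was 2 without subjective day replicate 2, where Nab1 no longer passed, and 2 without objective day replicate 1, where Nab2 no longer passed. With a variance prior that does not depend on expression level it was 0, as it was for all genes tested. The conditions did not overlap for 5 of the 6 genes, Egr4 being the exception, as for 56.1% of all genes tested, and of the 5, Egr2 and Egr3 were compared because of their objective day values.

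**Figure D2:**
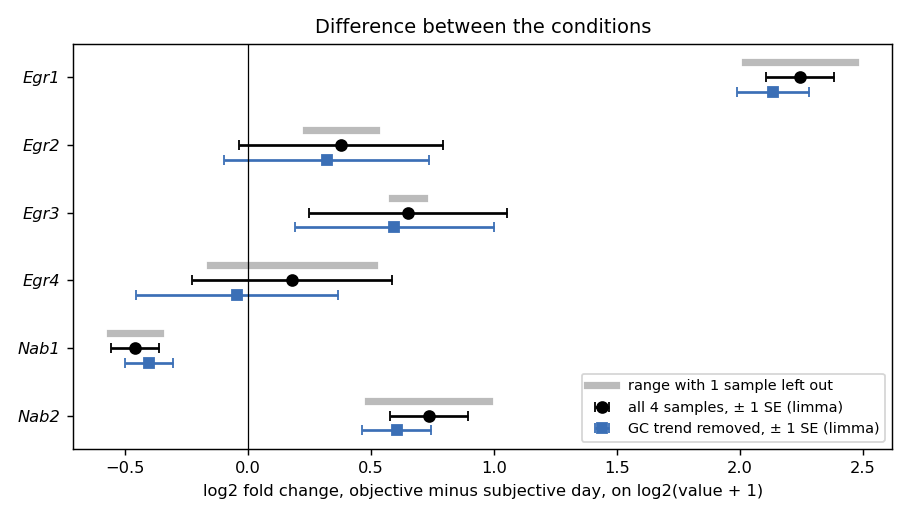
Log2 fold change of each Egr and Nab gene, objective minus subjective day on log2(value + 1), with all 4 samples (black points with 1 SE from limma), with each sample's GC trend removed (blue squares with 1 SE) and as a range with 1 sample left out (grey bars). Egr1 stands at 2.25, Nab1 and Nab2 lie on opposite sides of 0, and the bar of Egr4 crosses 0.

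Levels of different genes were compared per kilobase of exon. In subjective day the order was Nab1 at 237 (220 to 254 over the 2 samples), Nab2 at 112 (93.3 to 131), Egr1 at 99.0 (83.7 to 114), Egr4 at 6.16, Egr2 at 2.64 and Egr3 at 1.91. Nab2 and Egr1 overlapped in this order, and the other neighbours did not. In objective day the order was Egr1 at 465 (447 to 482), Nab2 at 185 (178 to 192), Nab1 at 172 (162 to 182), Egr4 at 6.86, Egr2 at 3.50 and Egr3 at 3.13. Egr1 thus stood below both Nab genes on average in subjective day and above both in objective day, where Nab2 and Nab1 were the neighbours that overlapped. The lower 3 places were held by the same genes in the same order in both conditions, but they rest on about 8 to 17 reads per sample. Counting error is not part of these ranges, so the order of Egr4, Egr2 and Egr3 is uncertain.

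The balance between Egr1 and its corepressors follows from these levels and does not depend on a scaling factor applied to a whole sample. The ratio of Egr1 to the sum of Nab1 and Nab2, per kilobase, was 0.238 and 0.329 in the subjective day samples, against 1.29 and 1.32 in the objective day samples. With all exonic bases counted as length, Egr1 transcripts were below the corepressor sum in both subjective day samples. They were above it in both objective day samples. Of the exonic bases of Nab2, 35.7% are shared with Gm16229 alone. A length without shared bases would put Nab2 higher, and whether the order in objective day would then hold was not tested. The ratio of Nab2 to Nab1 was 0.596 and 0.368 in subjective day, against 1.05 and 1.10 in objective day. Per kilobase, the larger of the pair was thus Nab1 in the first condition and, narrowly, Nab2 in the second. As values not divided by length, Nab1 stayed above Nab2 in objective day, at 748 and 665 against 564 and 523. The ratios depend on the lengths used, and the GC trend was not removed from them. The sum of Nab1 and Nab2 was 352 and 347 per kilobase in subjective day, against 374 and 340 in objective day. This sum overlapped between the conditions, while the share of Nab2 in it was 37.4% and 26.9% in subjective day, against 51.2% and 52.3% in objective day. Egr1 made up 90.5% and 90.1% of the Egr family per kilobase in subjective day, against 97.1% and 97.2% in objective day. These ratios rest on the values that chose the genes and on an uncertain Nab2, and they describe RNA, not protein.

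**Figure D3:**
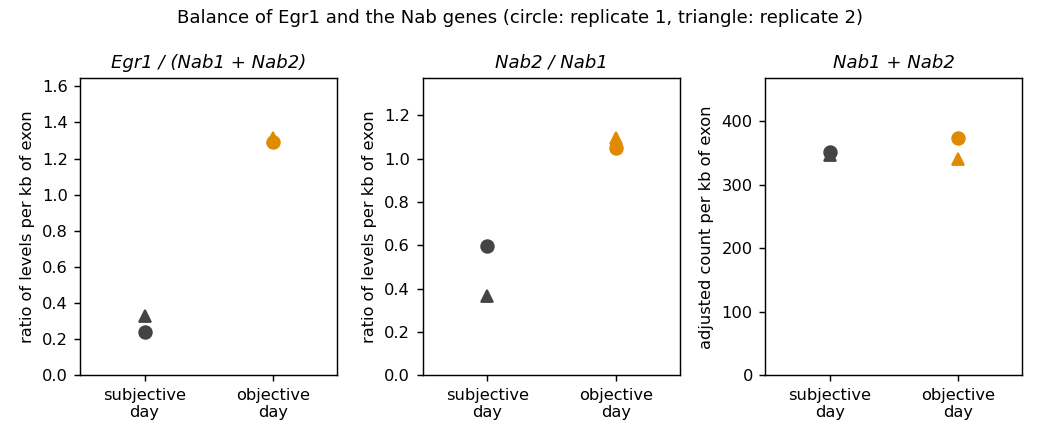
Ratio of Egr1 to the sum of Nab1 and Nab2, ratio of Nab2 to Nab1, and sum of Nab1 and Nab2, all per kilobase of exon, for each sample (circles for replicate 1, triangles for replicate 2). The first ratio goes from 0.238 and 0.329 to 1.29 and 1.32, the second crosses 1, and the sum overlaps between the conditions. The lengths include the bases that Nab2 shares with other genes.

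Around these genes, 8 lists of 108 genes were examined, from the inputs of the Egr genes to their described targets, and 106 of the genes could be compared. Of these, 15 passed the threshold in limma, 7 higher and 8 lower, or 14.2% against 8.51% of all genes tested. The lists were written with earlier results of these samples known, and no test was made of a list as a whole. With the GC trend removed 4 of the 15 passed in the same direction, namely Ngfr, Fos, Spred3 and Spred1, and these 4 also passed with any 1 sample left out.

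Among the inputs, serum response factor and its partners had 0 of 7 genes past the threshold, with a median log2 fold change of 0.09. Myocd, a coactivator of serum response factor in muscle, had the largest difference there with -0.21 (SE 0.29, adjusted p = 0.707 in limma), but it ran from -0.53 to 0.12 with 1 sample left out. Mkl1, its actin-regulated relative, followed with 0.16 (SE 0.062, adjusted p = 0.158 in limma), and with 0.04 after removal of the GC trend. In the CREB family and its coactivators, 1 of 8 genes was lower and none higher, with a median of 0.13. It was Creb1 itself, the factor that binds the cyclic AMP response element, at 3057 and 3316 in subjective day, against 2420 and 2234 in objective day. On the log2 scale it differed by -0.45 (SE 0.071, adjusted p = 0.0114 in limma), and with the GC trend removed 0.001 (adjusted p = 0.996). Creb1 also did not pass without objective day replicate 2, and its value ran from -0.51 to -0.39 over the samples left out.

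In the ERK cascade, 1 of 18 genes was higher and 2 were lower, with a median of -0.11. The kinase gene Rps6ka3 fell by 0.53 on the log2 scale (adjusted p = 0.00774 in limma), while Rps6ka2 of the same family was higher by 0.37 (adjusted p = 0.0114). With the GC trend removed, these values were -0.14 and 0.28, and neither passed. Rps6ka2 also did not pass without objective day replicate 1 or objective day replicate 2, with values from 0.36 to 0.39 over the samples left out. Of 12 feedback inhibitors of the cascade, 1 was higher and 1 lower, with a median of 0.029. Both encode Spred proteins, which hold back Ras signaling. Spred3 was 818 and 754 in subjective day, against 1153 and 1146 in objective day, with a log2 fold change of 0.55 (SE 0.074, adjusted p = 0.0071 in limma). Spred1 was 2206 and 2508 in subjective day, against 1422 and 1450 in objective day, with a log2 fold change of -0.71 (SE 0.077, adjusted p = 0.00558 in limma). The difference was 0.45 for Spred3 and -0.37 for Spred1 with the GC trend removed.

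Among the described Egr targets, 3 of 20 genes were higher and 1 was lower, with a median of 0.20, or 0.10 with the GC trend removed. Ngfr, the low-affinity neurotrophin receptor and a described target of Egr1 and Egr3, was 1033 and 986 in subjective day, against 1641 and 1542 in objective day. The samples of each condition lay close together and the conditions were well apart, with a log2 fold change of 0.66 (SE 0.070, adjusted p = 0.00558 in limma) and of 0.54 with the GC trend removed (adjusted p = 0.0181). Vegfa, an angiogenic growth factor, was higher by 0.26 (adjusted p = 0.0375 in limma) and Id3, an inhibitor of helix-loop-helix factors, by 0.37 (adjusted p = 0.0397). Removal of the GC trend left 0.21 and 0.27, and neither passed. Neither passed without subjective day replicate 2, objective day replicate 1 or objective day replicate 2, and with any 1 of the 4 samples left out the value ran from 0.23 to 0.28 for Vegfa and from 0.28 to 0.45 for Id3. Fasl was too low to compare.

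On the repressor side, 1 of 13 genes of the NuRD complex was lower and none higher, with a median of 0.09. It was the histone deacetylase gene Hdac2, at 2133 and 1969 in subjective day, against 1520 and 1416 in objective day, with a log2 fold change of -0.48 (SE 0.072, adjusted p = 0.00974 in limma) and of -0.19 with the GC trend removed (adjusted p = 0.388). Hdac2 did not pass without objective day replicate 2 either, and ran from -0.54 to -0.42 over the samples left out. Of 7 further factors that bind GC-rich sites overlapping those of Egr, 2 were lower and none higher, with a median of 0.07. Sp3 had a log2 fold change of -0.34 (adjusted p = 0.0255 in limma) and Sp1 of -0.30 (adjusted p = 0.0475). With the GC trend removed these were 0.08 and -0.10, and neither passed. Leaving out subjective day replicate 2, objective day replicate 1 or objective day replicate 2 also left both short of the threshold. With any 1 of the 4 samples left out, the value ran from -0.40 to -0.28 for Sp3 and from -0.36 to -0.23 for Sp1. Sp1 also did not pass with median ratio scaling, with upper quartile scaling or without the filter on low values.

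Of 21 other immediate early genes, 2 were higher and none lower, with a median of 0.07. Fos, a subunit of the AP-1 factor, was 309 and 319 in subjective day, against 527 and 536 in objective day, with a log2 fold change of 0.76 (SE 0.090, adjusted p = 0.00558 in limma) and of 0.69 with the GC trend removed (adjusted p = 0.0205). Ier2 was higher by 0.38 (SE 0.085, adjusted p = 0.0364 in limma), and by 0.25 with the GC trend removed, where it did not pass. It also did not pass without subjective day replicate 2, objective day replicate 1 or objective day replicate 2. With any 1 of the 4 samples left out, the value of Ier2 ran from 0.32 to 0.45. The highest log2 fold change among the 21 was 0.85, for Npas4, which did not pass (SE 0.23, adjusted p = 0.0668 in limma), against 2.25 for Egr1.

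**Figure D4:**
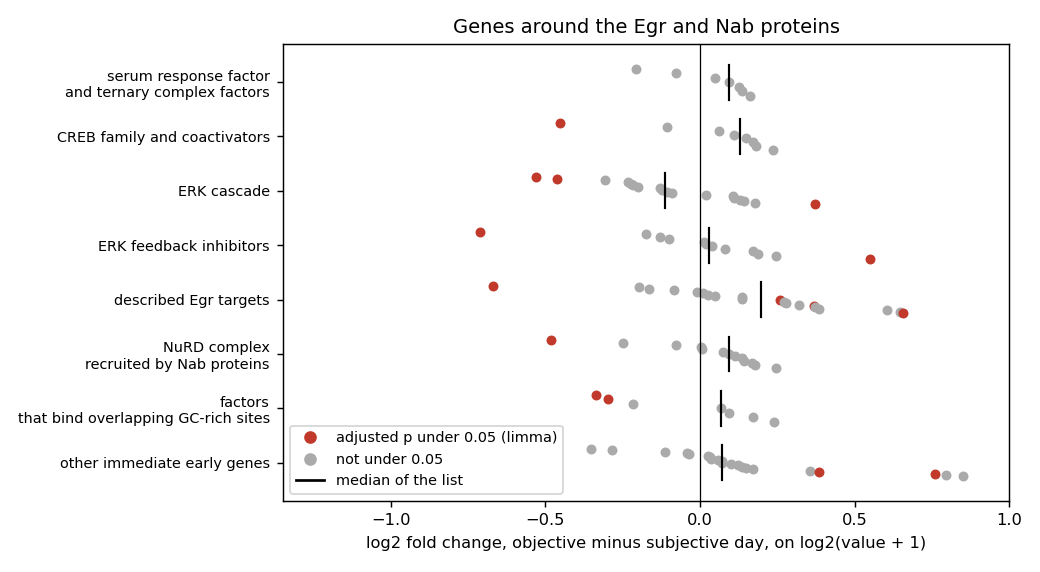
Log2 fold change, objective minus subjective day, of each gene compared in the 8 lists around the Egr and Nab proteins, in red where the adjusted p in limma was under 0.05 and in grey otherwise, with a black bar at the median of each list. The list medians lie between -0.11 and 0.20, and red points stand on both sides of 0.

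The genes whose log2 profile over the 4 samples was nearest to that of Egr1, by Euclidean distance after centring, were Adamts4, Zbtb9, E030010N08Rik, Gm13373 and Vgf, with distances from 0.648 to 1.01 among 17783 genes. Vgf, a secreted neuropeptide precursor, was the only one of the 5 at a high level, with 584 and 496 in subjective day, against 1459 and 1303 in objective day. Adamts4, a protease of the extracellular matrix, was 13.0 and 18.7 in subjective day, against 57.8 and 43.9 in objective day. The other 3 did not exceed 20.1 in any sample. Among the members, Egr3 ranked 134 and Nab2 158 in likeness to Egr1, Egr2 555, Egr4 2365 and Nab1 15954. With 4 samples in 2 conditions, such a ranking holds little more than the difference between the conditions.

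These are bulk samples, in which fewer cells of a type and less RNA per cell cannot be told apart. Markers of the retina were present in every sample, and 0 of 9 photoreceptor markers passed the threshold in limma, nor did any of 9 amacrine cell markers or 8 retinal ganglion cell markers. Summed amacrine cell markers were 37280 and 37457 in subjective day, against 38975 and 38168 in objective day. Photoreceptor markers had a median log2 fold change of 0.21, with 7 of 9 above 0. Their sums were 1034300 and 920920 in subjective day, against 1193700 and 1073600 in objective day. Neither the amacrine cell sums nor the photoreceptor sums overlapped between the conditions. In subjective day replicate 1, Gnat1 alone made up 649590 of the photoreceptor sum. Among bipolar cell markers 1 of 9 was higher and 2 were lower, 2 of 7 Muller glia markers and 2 of 6 RPE markers were lower, and 2 of 8 endothelial markers were higher, where 1.06% of all genes tested were higher and 7.45% lower. Of the cells in which Egr2 is best known, Schwann cell and myelin markers had 0 of 10 past the threshold, with sums of 3889 and 5517 in subjective day, against 4210 and 3839 in objective day, and T lymphocyte markers had 0 of 5, with sums between 186 and 221. Macrophage and microglia markers had 0 of 8, while 7 of 8 lay above 0 and their median was 0.30 on the log2 scale.

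Markers of tissues other than the retina moved with the conditions. Of the genes listed as corneal epithelium markers, 4 of 5 were lower, with a median log2 fold change of -1.28. Their sums were 10452 and 10933 in subjective day, against 3012 and 5482 in objective day. Krt12, the defining keratin of that epithelium, stayed between 1.78 and 12.5 and was too low to compare. The list is therefore not shown to mark cornea in these samples. Blood markers were higher in 3 of 5, with sums of 3054 and 3161 in subjective day, against 4301 and 4574 in objective day and a median of 0.55, where globin genes are near-identical copies with uncertain counts. The part of these tissues and of the retinal cell types in the differences of Egr1, Nab1 and Nab2 was not tested.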

How the data were processed

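Poly-A RNA of 4 eye samples was sequenced on 1 lane. Per the methods and the submitters' processing notes, base calling used CASAVA 1.8, reads were aligned with TopHat2 2.0.9 and Bowtie2 2.1.0 to the mouse genome, and genes were counted with HTSeq and compared with edgeR. The deposited values are adjusted counts per gene with decimals and like totals per sample, and they were treated here as signal. The filter, scaling and strand setting of the authors are not given in the sources used here. The authors' own comparison columns (log2 fold change, log2 CPM, p-value, FDR) were not used, and 0 columns of sample values were left out.

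Low values lay within 0.1 of a whole multiple of the value of 1 read for 62.9% to 100% of them by sample, so whole reads were not recovered and no count test was run. Values were analysed as log2(value + 1) with limma 3.58.1 in R 4.3.3, for genes at 10 or more in at least 2 samples, with moderated variances whose prior depends on expression level. A run of the test on simulated counts held no GC trend and no replicate effect, so nothing is read from it here. The samples are described as biological replicates. The GC trend was removed in each sample by local regression with a span of 0.3, over the 98.6% of genes with a GC content in GENCODE M21 (GRCm38), which takes away real differences linked to GC content too. Exonic lengths and overlaps came from that annotation and promoters from RefSeq.

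The members, the lists and the tests were chosen with earlier results of these data known. Named genes were the 6 members, up to 4 genes past the threshold in each list (in a list with none, the 2 with the largest difference), Ngfr and the 5 genes nearest to Egr1 in profile. Others were named after their values were seen. Some genes that the rule names are counted in their lists but not reported here by name. Alternatives left out each sample, added the replicate number as a block, and changed the filter, pseudocount, scaling, variance prior and GC trend. Figures were drawn with matplotlib 3.10.9.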

Additional observations from a re-analysis of the deposited data

How the results depend on the processing

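The precision of each difference is limited by 2 samples in each condition, and for Egr2, Egr3 and Egr4 by counts of about 8 to 17 reads per sample. The direction of Egr1, Egr2, Egr3, Nab1 and Nab2 was the same under every alternative in which they were compared, while Egr4 changed sign in 3 of 13. With a pseudocount of 10 the log2 fold change was 0.21 for Egr2 and 0.37 for Egr3, as a larger pseudocount shrinks low values, and a filter of 50 left out Egr2, Egr3 and Egr4. Genes past the threshold in limma numbered 664 to 2557 with 1 sample left out, and 7 to 23 in the 8 lists. With the GC trend removed there were 211, and 4 in the lists. With a variance prior that does not follow the mean there were 0, and 0 in the lists, where 3585 genes had an unadjusted p under 0.05 (4512 with the prior used). With 1 sample left out, the log2 fold change ran from 2.02 to 2.47 for Egr1, 0.24 to 0.52 for Egr2, 0.58 to 0.72 for Egr3, -0.16 to 0.51 for Egr4, -0.56 to -0.36 for Nab1 and 0.49 to 0.98 for Nab2. Samples with the same replicate number share only that number in the labels, and their deviations from the condition means had a correlation of 0.319 across 17784 genes. With the replicate number as a block, 3613 genes passed the threshold, and 34 in the lists. With it and the GC trend removed, 1626 passed, 914 higher and 712 lower. Markers past it with the block numbered 5 of 9 for photoreceptors, 2 of 9 for amacrine cells and 4 of 8 for ganglion cells, and Npas4, Maff, Nr4a1 and Klf6 passed as well.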

Other observations

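Some other immediate early genes, named here after their values were seen, came near the threshold without passing it. Npas4, a factor induced by synaptic activity, was 39.9 and 43.2 in subjective day, against 65.0 and 88.1 in objective day, with a log2 fold change of 0.85 (SE 0.23, adjusted p = 0.0668 in limma). Maff, a small Maf factor, was 39.9 and 45.3 in subjective day, against 74.7 and 74.6 in objective day, with a log2 fold change of 0.80 (SE 0.20, adjusted p = 0.0579 in limma). Nr4a1, an orphan nuclear receptor, was 642 and 719 in subjective day, against 826 and 915 in objective day, with a log2 fold change of 0.36 (SE 0.092, adjusted p = 0.0585 in limma). Klf6, a zinc finger factor, was lower, at 912 and 959 in subjective day, against 775 and 760 in objective day, with a log2 fold change of -0.28 (SE 0.073, adjusted p = 0.0565 in limma). With the GC trend removed the values were 0.75 for Npas4, 0.68 for Maff, 0.25 for Nr4a1 and -0.02 for Klf6. The conditions did not overlap for any of these 4 genes, as for 56.1% of all genes tested. Junb had a log2 fold change of 0.10 (SE 0.088, adjusted p = 0.526 in limma), Jun of 0.02 (SE 0.079, adjusted p = 0.879) and Atf3 of 0.03 (SE 0.14, adjusted p = 0.913).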
